A study of Canis lupus familiaris with 17 samples.

Results

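CD4 regulatory T cells of canine blood were picked cell by cell from the transcripts they carried, counted as unique molecular identifiers (UMIs). A barcode belonged to them when it had at least 1 UMI of CD3E and of CD4, none of CD8A, MS4A1 or SOX5, and at least 1 UMI of 2 or more of the 4 genes FOXP3, IKZF2, CTLA4 and IL2RA. The rule found 1880 cells among 84361 barcodes that held 200 to 4500 genes, 500 to 20000 UMIs and under 10% mitochondrial UMIs. They were 13.2% of the 14248 cells that met the first part of the rule, called the CD4 gate here, and they came from all 17 dogs, with 26 to 162 cells per dog. Of the other cells of the CD4 gate, 4785 carried exactly 1 of the 4 genes and 7583 carried none.

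Peripheral blood mononuclear cells from client-owned dogs of various breeds were profiled by droplet single-cell RNA sequencing to compare circulating leukocytes in health and in osteosarcoma (OS), a malignant tumor of bone. The 7 healthy dogs (H1 to H7) and the 10 dogs with OS (OS1 to OS10) all have the genotype label Wt, were sampled from blood by density gradient and red cell lysis, and gave 1 library each. Dogs with OS had their primary tumor and had received no treatment when blood was drawn. Age, sex and breed are not in the sample labels, and their part in any difference between the groups was not tested.

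Regulatory T cells restrain other lymphocytes. The transcription factor FOXP3 fixes their program with help from the Ikaros family member IKZF2 (Helios), they hold large amounts of the inhibitory receptor CTLA4, which takes CD80 and CD86 from antigen-presenting cells, and the high-affinity interleukin-2 receptor chain IL2RA lets them take up interleukin-2 made by other T cells. Activated conventional T cells also switch on CTLA4 and IL2RA, so no single transcript defines the type, and in dogs CD4 is found on neutrophils as well as on T cells.

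Libraries held 7740230 to 56510134 UMIs. The smallest belonged to OS3, which had 1239 barcodes within the limits and 26 regulatory T cells, while the other 16 libraries held at least 27811378 UMIs. Any 2 libraries shared at most 16 barcodes within the limits. Scrublet, a doublet caller, scored the barcodes, and the highest scores of each dog were marked. How many were marked was fixed beforehand from the dog's number of barcodes. Those marked were 136 of the 1880 cells (7.23%) and 414 of the 7583 CD4 gate cells with none of the 4 genes (5.46%). They were kept because the rule does not remove them. Scrublet's own cutoff marked fewer barcodes in every dog but OS3, where both gave 13, with 3 against 333 in OS2. Both percentages therefore depend on the number fixed beforehand.

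The 4 genes of the rule did not contribute equally. CTLA4 was detected in 1752 of the 1880 cells (93.2%), IKZF2 in 1660 (88.3%), IL2RA in 609 (32.4%) and FOXP3 in only 114 (6.06%). The pair IKZF2 and CTLA4 alone described 1187 cells (63.1%), and IKZF2, CTLA4 and IL2RA together described another 278 (14.8%). CTLA4 with IL2RA accounted for 196 cells (10.4%) and IKZF2 with IL2RA for 105 (5.59%), and 21 cells carried all 4 genes. Because these genes chose the cells, the shares are a description. Just inside the threshold were 1526 cells with exactly 2 of the genes, at a median of 6740 UMIs per cell, and just outside it were the 4785 with exactly 1, at a median of 6154 UMIs, of which 3540 (74.0%) carried CTLA4.

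B cells served as a reading of free RNA in droplets. Among 4279 B cells (MS4A1 detected, CD3E and CD4 not, median 4582 UMIs), FOXP3 was found in 1 cell, CTLA4 in 2.17%, IKZF2 in 4.81% and IL2RA in 13.7%, and 1.15% carried 2 or more of the 4 genes. B cells can themselves express IL2RA. Other T cells can express these genes and give no such reading. Of 7842 CD8A-positive T cells (median 5164 UMIs), 45.7% had an IKZF2 UMI, 8.28% a CTLA4 UMI and 3.44% 2 or more of the genes. Of 21998 T cells without a CD4 or CD8A UMI (median 5267 UMIs), 2154 (9.79%) met the same requirement of 2 genes, a group that is compared with the CD4 cells further on.

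Whether the 4 genes mark the same cells was tested by leaving each one out of the choice in turn. Within each dog, CD4 gate cells with at least 2 of the other 3 genes were set against cells with none of those 3, matched 1 to 1 on total UMIs. FOXP3 was detected in 76 of 1842 cells picked without it and in 2 of 1842 matched cells, a mean over dogs of 4.37% ± 1.78 (SD, n = 17 dogs) against 0.0849% ± 0.241. IKZF2 reached 62.0% ± 12.8 against 15.6% ± 5.13 (n = 16 dogs), CTLA4 73.3% ± 11 against 37.2% ± 11.8 (n = 17 dogs) and IL2RA 19.8% ± 4.99 against 4.66% ± 3.67 (n = 17 dogs). The picked cells were higher in every dog for all 4 genes (permutation test with sign flips over dogs, two-sided, adjusted p = 4e-05 for each gene). Each of the 4 transcripts was thus carried more often by cells that had been chosen on the other 3. These gaps between picked and matched cells were not detectably different in OS (two-sided exact rank-sum test of Wilcoxon, p = 0.364 for FOXP3, 0.758 for IKZF2, 0.133 for CTLA4 and 0.536 for IL2RA).

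**Figure D1:**
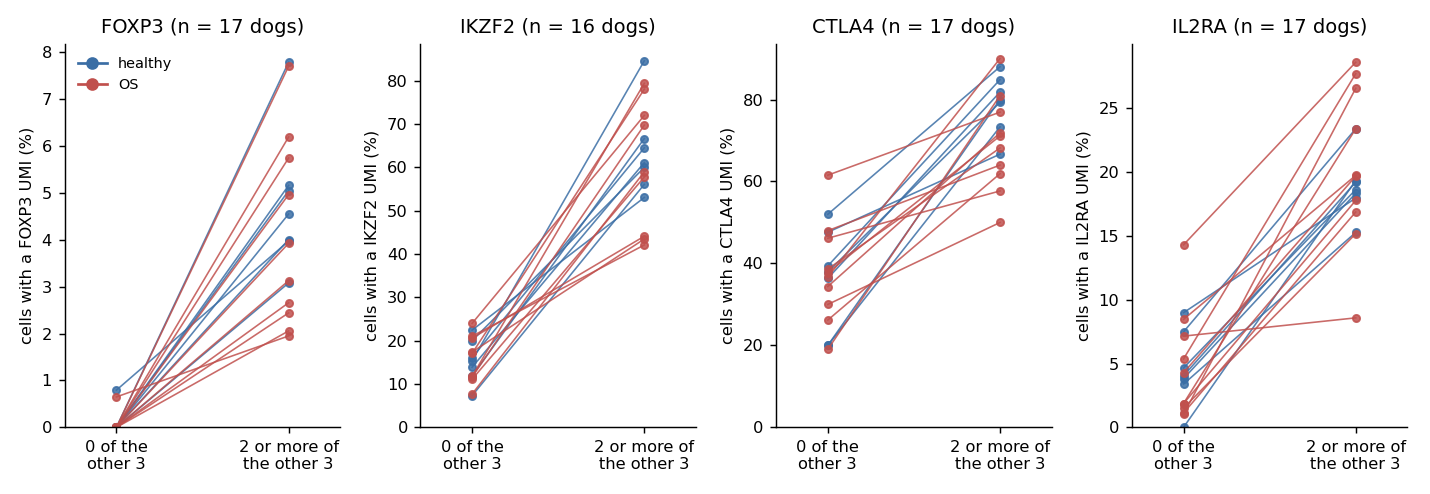
Percent of cells with a UMI of 1 gene (y axis, percent) in CD4 gate cells with none and with 2 or more of the other 3 genes, matched on total UMIs. Each line joins both values of 1 dog, blue for healthy and red for OS. All lines rise, for FOXP3 from a mean of 0.0849% to 4.37% and for IKZF2 from 15.6% to 62.0%.

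The wider transcriptome of the regulatory T cells was then compared with that of CD4 gate cells from the same dog that carried none of the 4 genes, matched 1 to 1 on total UMIs. UMIs were summed per dog and class and given as CPM, counts scaled to a common total, with TMM factors that correct for differences in composition. Of 12401 genes tested, 528 were higher (4.26%) and 479 lower (3.86%) in the regulatory T cells by edgeR's quasi-likelihood test with dog as a block, called at an adjusted p under 0.01 with a log2 fold change past 0.58 either way. The 9 genes of the rule took no part in this test. The median log2 difference over all tested genes was -0.02.

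ICOS, a costimulatory receptor that is a marker of regulatory T cells but was not used to choose them, was read first. The study also lists ICOS, MAF and CD28 among the leading features of its effector memory CD4 T cells. A higher ICOS level than in cells with none of the 4 genes therefore does not tell regulatory from memory T cells. ICOS ran from 253 to 514 CPM over the 17 dogs (median 380) in regulatory T cells and from 95 to 322 CPM (median 172) in matched cells. Its level was higher in the regulatory T cells of 17 of 17 dogs, although the ranges over dogs overlapped, by 2.17-fold (log2 difference 1.12 ± 0.0819 SE, edgeR adjusted p = 4.14e-14). Of the 7 genes that the study lists as leading features of its regulatory T cells, 4 lie outside the rule. ICOS, the G protein signaling regulator RGS1 (log2 difference 0.99 ± 0.0815, edgeR adjusted p = 9.89e-13) and ZNF831 (1.03 ± 0.105, edgeR adjusted p = 2.43e-10) were higher. The log2 difference of the costimulatory receptor CD28 was 0.50, below the fold threshold. That list was drawn up on these same samples and is not independent evidence. The RGS1 call was lost when dog was not a block (edgeR adjusted p = 0.0209). RGS1 ran from 87.5 to 648 CPM over dogs in the regulatory T cells.

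Of 30 genes of the wider regulatory T cell program, 24 were tested, of which 14 were higher and 3 lower, with a median log2 difference of 1.08 against -0.02 over all tested genes. MAF, a transcription factor that drives interleukin-10 in T cells, ran from 234 to 497 CPM (median 336) in regulatory T cells and from 51.4 to 180 CPM (median 109) in matched cells. No dog's regulatory T cells fell into the range of the matched cells for MAF (log2 difference 1.63 ± 0.0788, edgeR adjusted p = 2.01e-19). PRDM1 (Blimp-1), the regulator of effector differentiation, had medians of 92.4 and 29.9 CPM and was higher in 17 of 17 dogs (log2 difference 1.51 ± 0.110, edgeR adjusted p = 3.4e-14). The TNF receptor family members TNFRSF18 (GITR) and TNFRSF4 (OX40), both costimulatory receptors of regulatory T cells, had medians of 29.7 and 26.4 CPM in regulatory T cells against 7.20 and 7.48 CPM in matched cells. TNFRSF18 was higher in 16 of 17 dogs (log2 difference 2.13 ± 0.187, edgeR adjusted p = 5.78e-12) and TNFRSF4 in 17 of 17 (1.6 ± 0.154, edgeR adjusted p = 7.14e-11). LGALS3, which encodes galectin-3, had medians of 335 and 104 CPM (log2 difference 1.59 ± 0.114, edgeR adjusted p = 2.47e-14). The study counts LGALS3 among the markers of its Th2-like effector memory CD4 T cells. Its higher level therefore does not tell regulatory from memory T cells.

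The 3 members of that list that were lower, named after their values were seen, were BACH2, NT5E and ENTPD1. BACH2 is a transcriptional repressor that keeps T cells quiescent, and it had a median of 263 CPM against 768 CPM in matched cells, lower in 17 of 17 dogs (log2 difference -1.38). ENTPD1 (CD39) and NT5E (CD73) are ectoenzymes that make adenosine and are found on regulatory T cells of other species, yet their log2 differences were -1.05 and -1.19. Their medians in regulatory T cells were only 3.08 and 1.83 CPM, and the ENTPD1 call was lost among healthy dogs alone (log2 difference -0.22, edgeR adjusted p = 0.849).

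Of 16 genes of interleukin-2 reception and signaling, 15 were tested, 1 was higher and 2 were lower, with a median log2 difference of -0.14. The higher one was IL2RB, the receptor chain that signals for interleukin-2 and interleukin-15, which ran from 59.9 to 174 CPM (median 116) in regulatory T cells and from 8.67 to 127 CPM (median 33.6) in matched cells. IL2RB was higher in 17 of 17 dogs (log2 difference 1.66 ± 0.124, edgeR adjusted p = 6.12e-14). The survival gene BCL2 was lower in 17 of 17 dogs, at a median of 573 against 999 CPM (log2 difference -0.82 ± 0.0551, edgeR adjusted p = 3.86e-15). IL2, the cytokine gene that FOXP3 represses, was low in both classes, at medians of 7.98 and 12.2 CPM (log2 difference -0.68 ± 0.186, edgeR adjusted p = 0.00532). This IL2 call did not hold when any 1 of 8 dogs was left out, with DESeq2, or in either group of dogs alone.

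CCR7, LEF1 and SATB1, which are high in naive T cells, were lower in the regulatory T cells, and ITGB1 and FAS were higher. Of 15 genes of naive and memory state, 13 were tested, 2 were higher and 5 lower. CCR7, the receptor that brings naive T cells into lymph nodes, ran from 35.6 to 129 CPM (median 85.5) in regulatory T cells and from 108 to 305 CPM (median 197) in matched cells, and was lower in 17 of 17 dogs (log2 difference -1.26 ± 0.0724, edgeR adjusted p = 3.28e-17). The transcription factor LEF1 had medians of 622 and 1416 CPM (log2 difference -1.25 ± 0.0564, edgeR adjusted p = 4.69e-20), and the chromatin organizer SATB1 medians of 418 and 902 CPM (-1.12 ± 0.0645, edgeR adjusted p = 3.28e-17). The 2 higher genes were ITGB1 and FAS. ITGB1, the integrin beta chain gained with antigen experience, ran from 420 to 829 CPM (median 559) against 67.3 to 294 CPM (median 142), without overlap between the classes (log2 difference 1.99 ± 0.101, edgeR adjusted p = 7.56e-19). The death receptor FAS had medians of 103 and 49.2 CPM (log2 difference 1.2 ± 0.0966, edgeR adjusted p = 5.66e-13).

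Helper lineage genes were tested for 18 of 26 members, of which 6 were higher and 0 lower. GATA3, the type 2 lineage factor that regulatory T cells also use, had a median of 168 CPM against 81.6 CPM in matched cells (log2 difference 1.00 ± 0.0717, edgeR adjusted p = 2.35e-14). RORA, an orphan nuclear receptor of type 17 and tissue T cells, had medians of 572 and 262 CPM (0.98 ± 0.0680, edgeR adjusted p = 1.05e-14). The chemokine receptor CCR6, which guides effector cells to mucosa, was higher by 1.31 on the log2 scale, and the call was lost in cells with at least 3 of the 4 genes. The study gives GATA3 as a marker of its Th2-like effector memory cells, and RORA and CCR6 as markers of its Th17-like ones. Higher levels of these genes do not tell regulatory from such memory T cells. Of 17 genes of costimulation and inhibition, 16 were tested, with 6 higher and 0 lower. Among them TOX2, a factor of follicular and exhausted T cells, had medians of 45.0 and 9.62 CPM (2.20 ± 0.187, edgeR adjusted p = 2.43e-12). The inhibitory receptor PDCD1 (PD-1) had medians of 14.8 and 4.95 CPM (1.57 ± 0.224, edgeR adjusted p = 5.15e-07), a call that was also lost in cells with at least 3 of the genes. The log2 difference of CD96, a receptor of the nectin family ligands, was 0.81, and its call was lost there, in healthy dogs alone and without dog as a block.

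Of 20 genes of trafficking and homing, 19 were tested, with 5 higher and 3 lower. Besides CCR7, the alpha chain ITGA1 of the collagen receptor was lower, at medians of 137 and 292 CPM (log2 difference -1.28 ± 0.0942, edgeR adjusted p = 4.6e-14). ITGB7, the beta chain of the gut homing integrin, was higher in 17 of 17 dogs, at medians of 134 and 77.9 CPM (0.76 ± 0.0705, edgeR adjusted p = 2.65e-11). Of the antigen receptor signaling genes, 0 of 24 tested passed both thresholds and the median log2 difference was 0.08. The log2 differences of the 3 most abundant ones were 0.21 for the kinase FYN, -0.57 for PRKCQ (protein kinase C theta) and 0.38 for the CD3 chain CD3D.

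**Figure D2:**
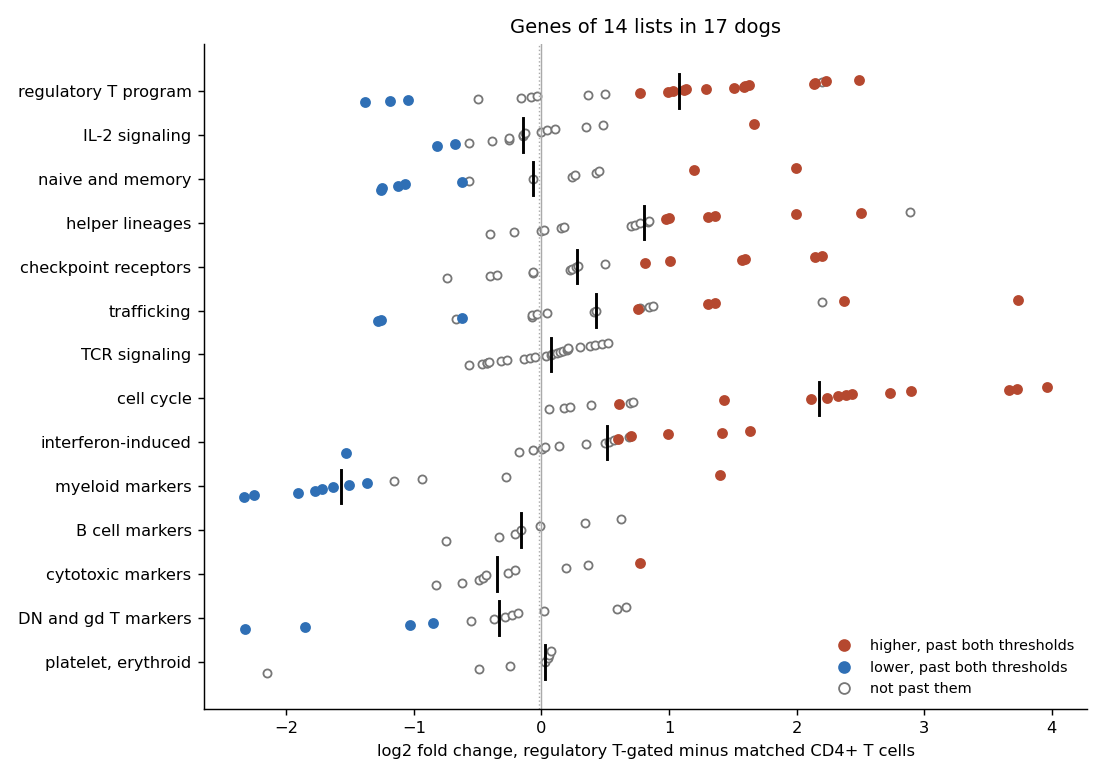
Log2 difference between regulatory T cells and matched CD4 gate cells (x axis) for each tested gene of 14 gene lists, 1 point per gene, colored by whether it passed both thresholds. Cell cycle genes and genes of the regulatory T cell program lie mostly to the right, with medians of 2.17 and 1.08, and myeloid genes mostly to the left, with a median of -1.57.

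Cell cycle transcripts were higher in the regulatory T cells. Of 20 cell cycle genes, 18 were tested, 12 were higher and 0 lower, with a median log2 difference of 2.17. MKI67, a marker of proliferating cells, ran from 3.97 to 99.5 CPM (median 27.3) in regulatory T cells and from 0 to 16.6 CPM (median 1.45) in matched cells, higher in 17 of 17 dogs (log2 difference 3.66 ± 0.310, edgeR adjusted p = 2.27e-12). The DNA topoisomerase TOP2A had medians of 9.44 and 2.45 CPM and reached 130 CPM in OS9 (2.90 ± 0.281, edgeR adjusted p = 8.32e-11). CENPF, a kinetochore protein gene, summed to 432 UMIs in regulatory T cells and to 15 in matched cells (4.5 ± 0.336, edgeR adjusted p = 6.6e-14). The kinesin KIF11 (2.32), the spindle factor TPX2 (1.43) and the replication licensing gene MCM3 (0.61) were also higher on the log2 scale, and these 3 calls were lost in cells with at least 3 of the 4 genes. In 56 of the 1880 regulatory T cells (2.98%, exact binomial 95% interval 2.26 to 3.85, counting error only) at least 2 of MKI67, TOP2A and CENPF were detected.

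Of 19 interferon response genes, 16 were tested, with 5 higher, 1 lower and a median log2 difference of 0.52. The ubiquitin-like modifier ISG15 had medians of 28.5 and 7.91 CPM (1.63 ± 0.190, edgeR adjusted p = 6.57e-09), a call lost in cells with at least 3 of the genes. IFI44 (0.70) and the RNA sensor OAS1 (0.60) were higher by less, the IFI44 call was lost against cells with at most 1 of the 4 genes, and the OAS1 call was lost when any 1 of 7 dogs was left out.

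The largest difference upward, among genes at a mean of at least 10 CPM, was that of a gene in none of these lists. DBX2, a homeobox gene best known from the neural tube, summed to 734 UMIs in the regulatory T cells of all 17 dogs and to 9 UMIs in matched cells, with 14 of 17 dogs at 0 there. A DBX2 UMI was found in a mean of 8.60% of regulatory T cells over dogs (3.25% to 17.1%). DBX2 had a mean of 51.9 CPM of all UMIs in regulatory T cells. It had 48.2 in the T cells without CD4 or CD8A that carried at least 2 of the 4 genes (7.29% of cells). DBX2 ran from 15.1 to 132 CPM (median 44.5) against 0 to 8.67 CPM in matched cells, without overlap (log2 difference 5.94 ± 0.303, edgeR adjusted p = 7.56e-19), a size that rests on those few matched counts. Also without overlap were the G protein subunit gene GNG3 (medians 33.9 and 1.85 CPM, log2 difference 3.48 ± 0.222, edgeR adjusted p = 7.65e-16) and NRP1, neuropilin-1, a semaphorin receptor of thymus-derived regulatory T cells in mice (medians 33.9 and 2.74 CPM, 3.03 ± 0.227, edgeR adjusted p = 7.44e-14). The adhesion molecule CADM1 had medians of 86.0 and 5.52 CPM (3.15 ± 0.190, edgeR adjusted p = 1.4e-16), and LHFPL6 medians of 13.9 and 1.22 CPM (3.30 ± 0.319, edgeR adjusted p = 7.39e-11).

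At the other end, among genes at a mean of at least 10 CPM, those with the largest log2 differences downward were NKAIN2, ZNF536, MAL, CLMP, SGIP1, AUTS2, COL6A5 and IL1B, of which IL1B did not hold in healthy dogs alone. NKAIN2 had medians of 3.08 and 59.7 CPM (log2 difference -4.46 ± 0.214, edgeR adjusted p = 1.63e-19). The zinc finger gene ZNF536 ran from 0 to 14.3 CPM (median 4.73) against 25 to 176 CPM (median 72.1), without overlap (-3.63 ± 0.169, edgeR adjusted p = 9.04e-20). MAL, a membrane protein of T cells, had medians of 0.977 and 12.2 CPM (-3.45 ± 0.313, edgeR adjusted p = 1.5e-11). AUTS2 had medians of 16.6 and 164 CPM (-2.82 ± 0.179, edgeR adjusted p = 6.87e-16).

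Transcripts of other cell types were read in both classes. Of 12 neutrophil and monocyte genes, all 12 were tested, 8 were lower in regulatory T cells and 1 was higher, with a median log2 difference of -1.57. The lysozyme gene LYZ ran from 30.5 to 1247 CPM (median 144) against 23.2 to 4447 CPM (median 1351), and it was lower together with FN1 (-1.78), AIF1 (-1.72) and IL1B (-2.33). In healthy dogs alone the calls for those last 3 genes were lost, with IL1B at -0.50 (edgeR adjusted p = 0.765), and the LYZ call was lost without dog as a block. The higher gene, named after its value was seen, was the calprotectin subunit S100A8, at medians of 3313 and 1410 CPM. The summed level of the 12 genes, S100A8 included, was higher in regulatory T cells of 6 of 7 healthy dogs (1652 to 5126 CPM of all UMIs against 441 to 6834) and of 8 of 10 dogs with OS (3050 to 6696 against 1203 to 6949). S100A8 made up most of the sum in regulatory T cells. It had a mean of 3425 CPM of all UMIs in regulatory T cells (a UMI in 95.9% of cells), 1849 in 8150 CD8A-positive T cells, here with those carrying SOX5 included (82.4%), and 246 in B cells (14.4%), so the sum is no reading of myeloid RNA alone. The part of the myeloid transcripts in the differences between the classes was not tested.

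The 8 B cell genes gave 0 calls among 7 tested, and nearly all of their sum was CD79A, detected in 99.3% of regulatory T cells and 99.1% of matched cells, with medians of 7120 and 8937 CPM. In CPM of all UMIs, CD79A had a mean of 6052 in B cells and 8935 in CD4 gate cells with none of the 4 genes, so the sum is no reading of B cells in these files. Of 11 cytotoxic genes, 10 were tested, and the cathepsin CTSW was the 1 that was higher (log2 difference 0.77, a call lost in healthy dogs alone), while the chemokine CCL5 (-0.46) and the granzyme GZMK (0.37) did not pass. Genes of double-negative and gamma delta T cells were lower for 4 of 12 tested, TMEM132D (-2.32), KANK1 (-1.85) and NMB (-1.03) among them, of which the NMB call was lost in healthy dogs alone. Of 8 platelet and erythroid genes, 7 were tested and 0 passed.

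The comparison above set cells with 2 or more of the 4 genes against cells with none, and the cells between them can be placed beside both. ICOS had a mean of 161 CPM of all UMIs ± 52.5 (SD, n = 17 dogs) in cells with none of the genes, 265 ± 60.9 with exactly 1, 371 ± 88.5 with exactly 2 and 420 ± 122 with 3 or 4 (n = 16 dogs). MAF stood at 103 ± 30.6, 189 ± 38.3, 327 ± 60.5 and 365 ± 108 CPM in the same order, and ITGB1 at 141 ± 58.4, 250 ± 92.6, 540 ± 157 and 732 ± 202 CPM. Neighboring steps from 2 genes to 3 or 4 lay within the spread between dogs for ICOS and MAF.

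DBX2 went from 0.634 ± 1.17 CPM with none and 2.23 ± 2.85 with exactly 1 gene to 32.7 ± 24.4 with exactly 2 and 136 ± 128 with 3 or 4. TNFRSF18 stood at 6.31 ± 4.27, 12.8 ± 5.64, 34.8 ± 17.8 and 41.6 ± 27.2 CPM. MKI67 was highest with exactly 2 genes, at 33.0 ± 21.6 CPM, against 26.5 ± 44.7 with 3 or 4. In the other direction LEF1 stood at 1511 ± 615, 1092 ± 412, 599 ± 206 and 574 ± 269 CPM, and CCR7 at 232 ± 59.4, 171 ± 51.2, 83.0 ± 25.8 and 91.3 ± 50.9 CPM. These levels are a description, since the number of genes detected chose the classes and rises with the UMIs of a cell, which were not matched here.

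**Figure D3:**
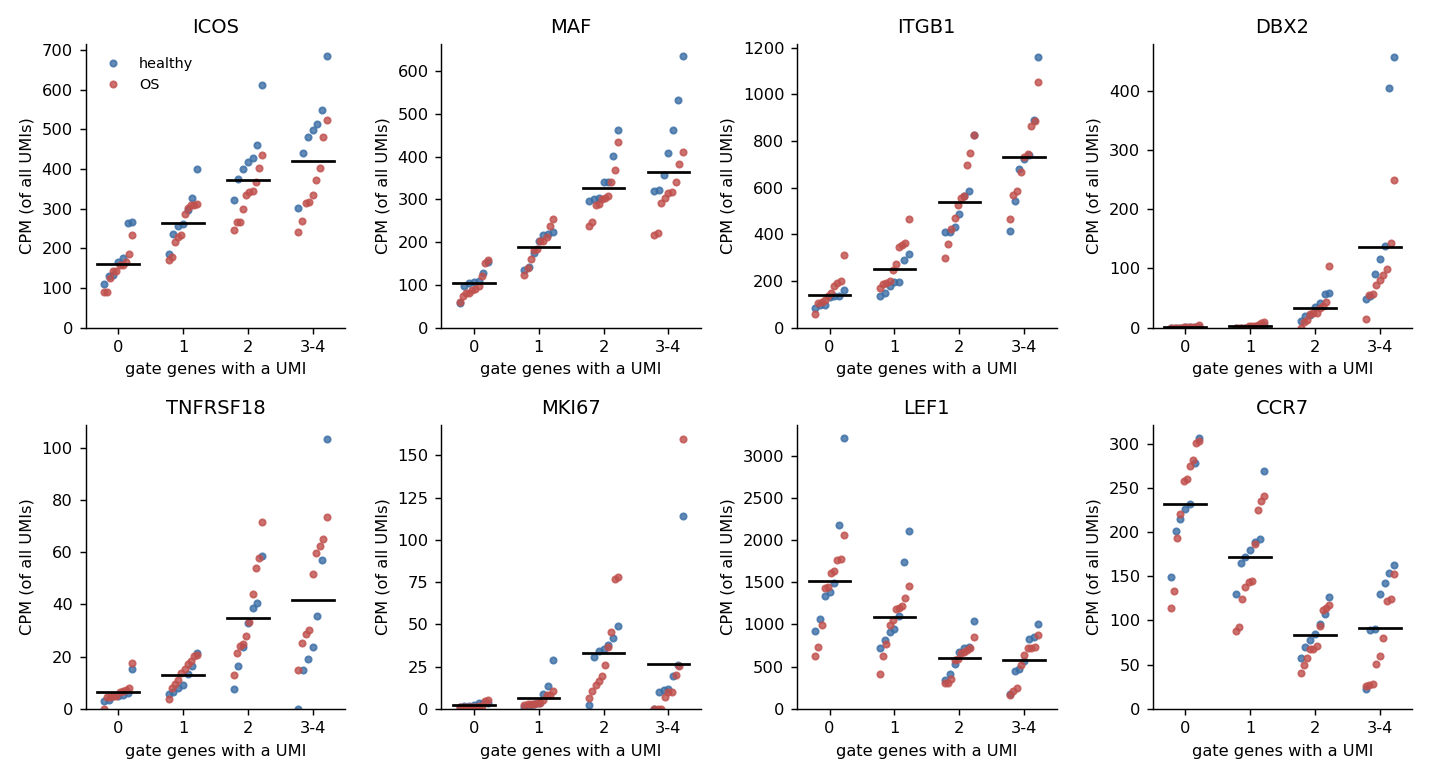
Level of 8 genes (y axis, CPM of all UMIs) in CD4 gate cells with 0, 1, 2 and 3 or 4 of the genes FOXP3, IKZF2, CTLA4 and IL2RA (x axis). Each point is 1 dog, blue for healthy and red for OS, and the bar is the mean. ICOS goes from a mean of 161 to 420 CPM and LEF1 from 1511 to 574 CPM.

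The second question was whether regulatory T cells differed between healthy dogs and dogs with OS. As a share of the CD4 gate they ran from 11.3% to 12.2% in healthy dogs (median 11.8%, mean 11.8% ± 0.312 SD, n = 7) and from 10.9% to 19.9% in dogs with OS (median 13.9%, mean 14.4% ± 3.03, n = 10). Healthy dogs sat close together. OS1 (19.9%), OS4 (17.9%), OS10 (16.8%), OS8 (15.2%), OS7 (13.9%), OS9 (13.9%) and OS5 (12.7%) stood above them all. OS3 (11.5%) and OS6 (11.5%) lay among them and OS2 below them all. The exact 95% binomial interval of each dog was wider than the healthy range, at 8.83% to 14.2% in H7 and 9.15% to 12.8% in OS2. In OS1 and OS10 the CD4 gate was 10.8% and 12.3% of all barcodes within the limits. Regulatory T cells were 2.16% and 2.07% of all barcodes there and 3.95% in OS4, against a healthy mean of 2.17%. The difference of 2.57 percentage points, with 7 of 10 dogs with OS above the healthy median, did not pass the two-sided exact rank-sum test of Wilcoxon (p = 0.133, and 0.266 adjusted over 2 denominators).

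That result moved with the choices made. An exact permutation test of the means gave p = 0.0390, and without OS2 the exact rank test gave p = 0.0418, both unadjusted. Of the 17 fits that each left out 1 dog, only this 1 fell under 0.05. When every cell was thinned to 2000 UMIs, which left out 4606 healthy and 5946 OS cells, the shares were 5.62% ± 1.67 and 5.86% ± 1.5, a difference of 0.241 percentage points (exact p = 0.962). Thinning left only 161 regulatory T cells in healthy dogs and 203 in dogs with OS, from 5 in OS3 to 34 in H3. The thinned shares thus rest on few cells per dog. As a share of all barcodes within the limits the regulatory T cells were 2.17% ± 0.519 in healthy dogs and 2.34% ± 0.704 in dogs with OS (exact p = 1). The CD4 gate itself was 18.4% ± 4.42 of these barcodes in healthy dogs and 16.4% ± 3.69 in dogs with OS (exact p = 0.315).

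**Figure D4:**
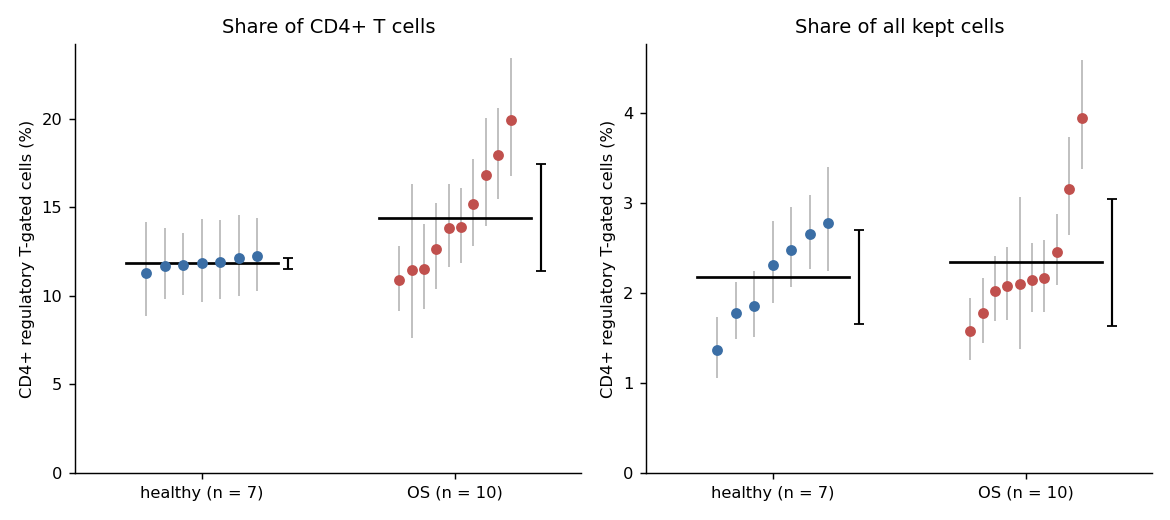
Regulatory T cells as a percent of the CD4 gate and of all barcodes within the limits (y axes, percent), 1 point per dog with its exact 95% binomial interval, blue for healthy and red for OS. The black bar is the group mean and the bracket 1 SD. The 7 healthy dogs lie between 11.3% and 12.2% of the CD4 gate and the 10 dogs with OS between 10.9% and 19.9%.

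The shares of regulatory T cells with each of the 4 genes are given for both groups as a description, since their detection chose the cells and every cell had to carry at least 2 of them. FOXP3 was detected in 6.49% ± 2.57 of the cells in healthy dogs (n = 7) and in 5.69% ± 1.99 in dogs with OS (n = 10). IKZF2 was found in 88.4% ± 4.01 and 89.1% ± 5.26, CTLA4 in 94.8% ± 1.90 and 91.6% ± 4.86, and IL2RA in 30.8% ± 3.93 and 33.9% ± 7.89. ICOS, which the rule did not use, was detected in 80.0% ± 3.96 of the cells in healthy dogs and 74.9% ± 6.11 in dogs with OS (exact p = 0.0588).

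No gene passed both thresholds between OS and healthy regulatory T cells. Of 11403 genes tested on sums per dog, 0 were called by edgeR (0%), 480 had an unadjusted p under 0.05, and the smallest adjusted p was 0.465. DESeq2 also called 0, with 371 genes under an unadjusted p of 0.05. In simulated data of this comparison, with 200 genes changed by 3-fold, the same test recovered 130 (65%).

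TXNIP, a regulator of glucose uptake, had the smallest p. It ran from 42.3 to 82.8 CPM (median 58.5) in healthy dogs and from 77.1 to 113 CPM (median 96.0) in dogs with OS, all 10 above the healthy median, with a log2 difference of 0.64 ± 0.137 (edgeR adjusted p = 0.465). The LIM domain gene CRIP2 ran from 11.1 to 26.2 CPM (median 20.01) and from 25.2 to 51.4 CPM (median 38.3; log2 difference 0.88 ± 0.195, edgeR adjusted p = 0.465). The platelet glycoprotein GP1BB (1.53), the immunoglobulin light chain gene IGKC (-2.54) and SH3RF3 (-1.01) came next by unadjusted p, each with an edgeR adjusted p of 1. None of these differences passed.

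ICOS ran from 358 to 514 CPM (median 428) in healthy dogs and from 253 to 418 CPM (median 359) in dogs with OS. The groups overlapped, though 0 of 10 dogs with OS lay above the healthy median, and the log2 difference of -0.34 (unadjusted p = 0.00983) did not pass across all genes. FOXP3 ran from 5.70 to 10.3 CPM in healthy dogs and from 5.13 to 13.9 CPM in dogs with OS (log2 difference 0.03). The log2 differences of the other genes of the rule's choice were -0.07 for IKZF2, -0.14 for CTLA4 and 0.21 for IL2RA. These genes and FOXP3 chose the cells, so their values are a description. For RGS1, ZNF831 and CD28 the log2 differences were 0.39, -0.42 and -0.27. Of the 24 tested genes of the regulatory T cell program 0 were called, with a median log2 difference of 0.02, and the medians for cell cycle genes (-0.06) and interferon genes (0.27) came with 0 calls as well. Over all tested genes the median was 0.01. Beside these values, the 7 tested B cell genes had a median of -1.35 and the 5 tested platelet and erythroid genes a median of 0.91, and their part in the gene values was not tested.

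**Figure D5:**
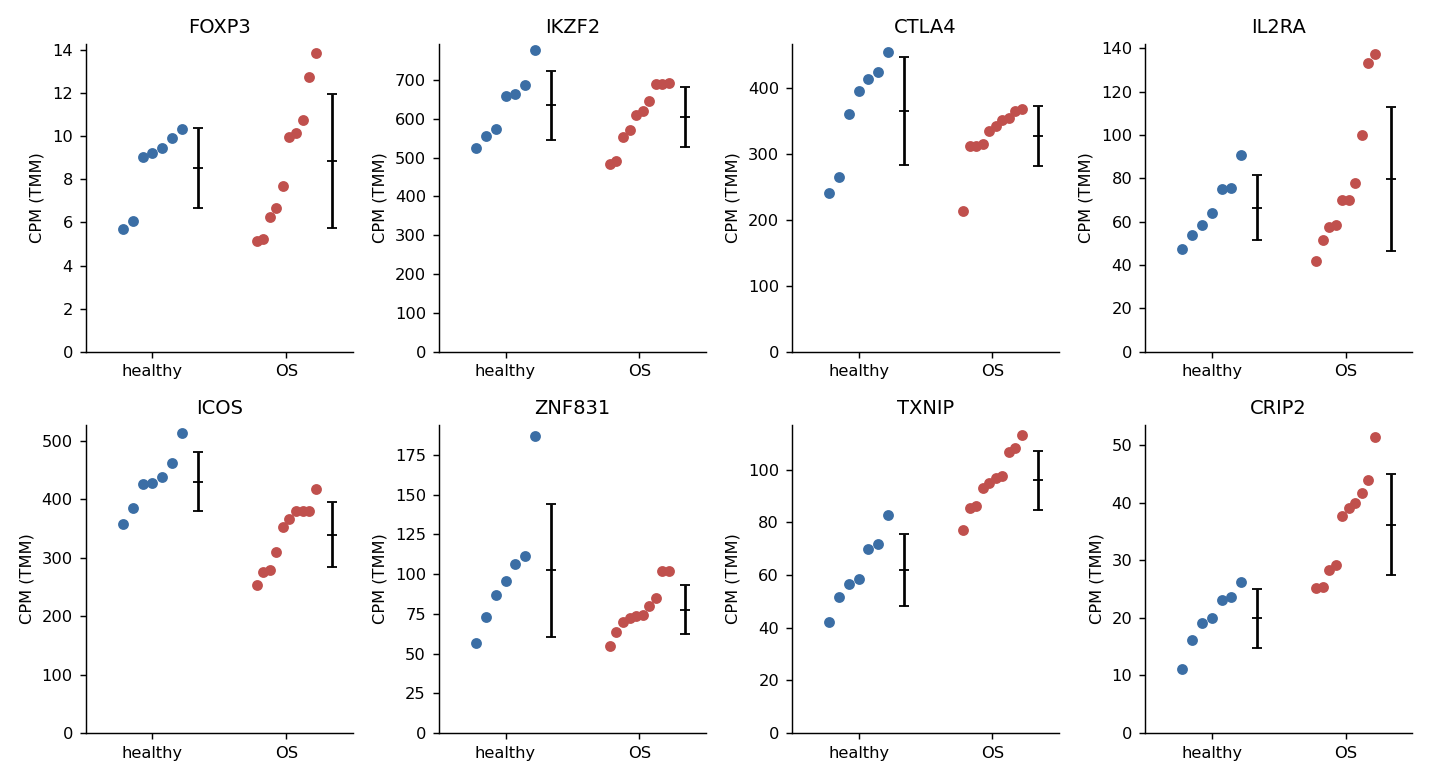
Level of 8 genes in regulatory T cells (y axes, CPM with TMM scaling) in healthy dogs (blue) and dogs with OS (red), 1 point per dog, with mean and SD beside each group. The differences in ICOS, ZNF831, TXNIP and CRIP2 did not pass the test across all genes. FOXP3, IKZF2, CTLA4 and IL2RA chose the cells, so their levels are a description and no test. All 10 dogs with OS lie above the healthy median of 58.5 CPM for TXNIP and none lies above the healthy median of 428 CPM for ICOS.

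Whether the difference between regulatory T cells and matched CD4 gate cells was itself altered in OS was tested as an interaction. Of 12401 genes 2 were called (0.0161%), with 514 at an unadjusted p under 0.05. ARHGAP24 had medians of 64.3 CPM of all UMIs in regulatory T cells and 144 in matched cells of healthy dogs, and of 25.1 and 139 in dogs with OS (interaction on the log2 scale -1.78 ± 0.314, edgeR adjusted p = 0.00688). ACOD1, the itaconate-producing enzyme of activated myeloid cells, had a value of -7.71 (edgeR adjusted p = 0.00253) that rests on few dogs. Of its 36 UMIs in healthy regulatory T cells 32 came from H1, and of its 87 UMIs in matched cells of dogs with OS 50 came from OS2. Neither gene was called when genes with low counts were removed by edgeR's filterByExpr. In the same fit the 12 myeloid genes had a median of -1.17, with 7 at an unadjusted p under 0.05 and 0 called. The 7 tested B cell genes had a median of -1.47, with 3 at an unadjusted p under 0.05 and 0 called. Over all tested genes the median was -0.00. The part of myeloid and B cell transcripts in the 2 calls was not tested. The ICOS interaction was -0.15 (edgeR adjusted p = 1).

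Regulatory T cells also varied among themselves. Cells with both IKZF2 and CTLA4 were split by detection of IL2RA and matched on total UMIs within the dog, a comparison chosen after the data had been seen, in the 15 dogs that had 10 or more cells on each side. Of 9811 genes 31 were called (0.316%), 7 higher and 24 lower with IL2RA. DBX2 was higher in 14 of 15 dogs, at a mean of 124 against 44.3 CPM (log2 difference 1.47 ± 0.225, edgeR adjusted p = 1.42e-06). LGALS3 (0.66, higher in 13 of 15 dogs), the exocytosis gene SYTL3 (0.66, 12 of 15) and RALGPS2 (1.08, 11 of 15) were also higher. So were the neuregulin NRG2 (1.26, 11 of 15) and ATRNL1 (1.75), the latter in only 8 of 15 dogs. CENPF was lower (-1.83, higher in 0 of 15 dogs), as was the chromatin protein gene HMGB2 (-0.59), while ICOS (0.04) and ITGB1 (0.19) did not pass.

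The other lower genes included the neutrophil and monocyte transcripts S100A12 (-5.18), LTF (-4.36), CAMP (-4.66) and LYZ (-2.50). LYZ was higher with IL2RA in 8 of 15 dogs although its mean was lower, at 38 against 361 CPM, and S100A12 was higher with IL2RA in 4 of 15 dogs. The sum of the myeloid list, S100A8 included, ran from 1578 to 5980 CPM of all UMIs with IL2RA and from 2497 to 11716 without it. It was higher without IL2RA in 10 of 15 dogs, by most in H1 (11716 against 3644), and lower in H4, OS1, OS2, OS6 and OS10. The part of these transcripts in the calls was not tested. DESeq2 called 0 genes here, with 169 at an unadjusted p under 0.05, and edgeR without dog as a block called 5.

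Splitting by FOXP3 left 3 dogs (H1, OS2 and OS4) that had 10 or more cells on each side. Of 6006 genes 12 were called (0.2%), all lower in cells with FOXP3, among them the neutrophil granule genes PGLYRP1, S100A12, CAMP and LTF and the chemokine CCL5. S100A12, CAMP and LTF were nonetheless higher with FOXP3 in 1 of the 3 dogs. The 12 myeloid genes, S100A8 included, summed in cells with and without FOXP3 to 305 and 382 UMIs in H1, to 442 and 323 in OS2, and to 308 and 1696 in OS4. The calls fell to 0 with DESeq2 (19 at an unadjusted p under 0.05). The sides met different requirements, since cells with FOXP3 needed only 1 of the other 3 genes and cells without it needed 2. MAF (0.02) and ITGB1 (-0.25) did not pass.

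The last comparison, also chosen after the data had been seen, set the CD4 regulatory T cells against the T cells without CD4 and CD8A that carried at least 2 of the same 4 genes, paired to the nearest total UMIs within each of 17 dogs. The pairing was incomplete, since too few CD4-negative cells were deep enough. The median UMIs per cell were higher on the CD4 side in 16 of 17 dogs, with the widest gap in OS4, at 7931 against 6216, and the part of this depth difference in the calls was not tested. In all, 86 of 12287 genes were called (0.7%), 26 higher and 60 lower in the CD4 cells. Of the regulatory T cell program 0 of 24 tested genes were called and the median log2 difference was 0.12. ICOS stood at a mean of 383 against 292 CPM (log2 difference 0.38, below the fold threshold) and ITGB1 at 582 against 577 CPM (-0.00). A CD4 transcript can be missed in a cell that makes it, and how many of the CD4-negative cells did so was not tested.

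Cytotoxic genes were lower in the CD4 cells. Of 10 tested 9 were called, among them the granzymes GZMA (log2 difference -2.83 ± 0.268, edgeR adjusted p = 2.44e-11) and GZMB (-2.02 ± 0.190, edgeR adjusted p = 2.15e-11) and the killer cell receptors NCR3 (-2.34), KLRD1 (-2.10) and KLRB1 (-1.72). Of 13 genes of double-negative and gamma delta T cells 7 were lower. The higher genes included the neutrophil granule genes CAMP (6.14, higher in 8 of 17 dogs), LTF (5.08, 11 of 17) and S100A12 (4.13, 15 of 17). CADM1 (1.32, 15 of 17 dogs) and the homeobox gene TSHZ2 (1.12, 16 of 17) were higher as well. DESeq2 called 48 genes in this comparison and edgeR without dog as a block 21.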

How the data were processed

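The authors deposited 1 matrix of UMI counts per gene and barcode for each of 17 dogs, unnormalized. Per the submitters' processing notes, Cell Ranger 7.0.0, Seurat and the CanFam3.1 build were used. Intronic reads were both included and excluded in the study's counting, and the setting of these matrices is not given in the sources used here. Genes were taken under the names in the files. Of 234 list genes 9 had no entry under their name and were not analysed here. Some genes picked by the naming rule are not reported here.

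Barcode limits and the choice of cells followed the rule given above. Members and gene lists were chosen with earlier results of these data known. Doublets were removed only as an alternative, by Scrublet scores (scanpy 1.11.5) and the number fixed beforehand for each dog, not by Scrublet's own cutoff. Counts were summed per dog and class, with at least 25 cells per dog (10 per side within the regulatory T cells). Genes with at least 10 counts were tested with edgeR 4.0.16 (TMM, glmQLFit, glmQLFTest), called at an adjusted p under 0.01 and an absolute log2 fold change above 0.58, with DESeq2 1.42.0 as an alternative. For shares the test was Wilcoxon's rank-sum test, exact and two-sided, which cannot go below p = 0.000103. Genes named were those of the rule, ICOS, the study's list, up to 5 called genes per list (the 3 most abundant where fewer than 2 passed), and the 8 largest changes each way at a mean of at least 10 CPM (the 5 of smallest p where none passed). Log2 differences are fitted values and were not compared between genes as levels.

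Replicate numbers name different dogs. Deviations of same-numbered healthy and OS dogs correlated at -0.0925 to 0.148, so the numbers do not pair dogs. With 1 library per dog, spread between dogs and spread between libraries cannot be told apart. P-values for levels or shares between healthy and OS dogs measure that spread. Those of fits with dog as a block measure the spread over dogs of the difference within a dog. On simulated counts with 200 genes changed by 3-fold, 147 were recovered with 0 false calls between classes, and 130 with 1 false call between groups. Alternatives covered limits on barcodes, doublets, the number of genes required, the denominator, thinning, filters, normalization, DESeq2, the block and leaving out each dog. Intervals cover counting error only.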

Additional observations from a re-analysis of the deposited data

Results flagged for a closer look

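Among 70 sets of values of regulatory T cells in 1 group of dogs, 12 held a dog whose gap to its nearest neighbor was large for the range of the group. The cutoff is meant to flag about 1 in 20 sets of normally distributed values. Low counts such as those of CLMP do not have that distribution, so the 12 cannot be set against that rate. H2 was high for 3 genes, with ZNF831 at 187 CPM (next dog 111), LHFPL6 at 93.6 CPM (next 36.3) and NKAIN2 at 13.1 CPM (next 3.55). H1 was high for IL1B at 37.3 CPM (next 2.02) and for CLMP at 3.18 CPM, with the other 6 healthy dogs at 0. H7 had the highest share of cells with IKZF2, at 96.9% (next 88.9%). In dogs with OS, OS9 was high for the cell cycle genes TOP2A at 130 CPM (next 42.8) and CENPF at 139 CPM (next 69.3) and for COL6A5 at 32.7 CPM (next 14.3). OS6 was high for GNG3 at 87.2 CPM (next 54.7), OS10 for IL1B at 41.6 CPM (next 11.5), and OS3, the library with 26 regulatory T cells, had the lowest share of cells with CTLA4, at 80.8% (next 88.6%). The shares with IKZF2 and CTLA4 are values that chose the cells, so these 2 of the 12 are a description and no test.

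Between groups, the difference from matched cells differed by edgeR's interaction test for ACOD1 (-7.71 on the log2 scale) and ARHGAP24 (-1.78).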

How the results depend on the processing

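Of 55 named genes called between regulatory T cells and matched cells, 35 kept direction and call in all of the 29 settings in which they were tested, 20 lost the call in at least 1 and 0 reversed. The 528 higher and 479 lower genes became 320 and 280 with filterByExpr, which tests fewer genes, 277 higher with at least 3 of the 4 genes and 225 lower in healthy dogs alone. The 2 interaction calls became 0 with filterByExpr. The 12 FOXP3 calls became 0 with DESeq2, with filterByExpr or without dog as a block, and 47 with at least 5 cells per side. At least 25 cells per side could not be given, since too few dogs have them. The 31 IL2RA calls became 0 with DESeq2, 2 with filterByExpr and 5 without dog as a block, and the 86 against CD4-negative T cells became 48, 43 and 21. The cause of these shifts was not tested where fewer genes or cells do not give it.

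The OS difference in share of the CD4 gate (2.57 percentage points) was positive in every setting tried, but its size varied. It was 0.0344 with FOXP3 and 1 other gene (0.768% healthy, 0.803% OS, exact p = 0.962), 0.241 with thinning and 0.372 with at least 3 genes (2.32% and 2.69%). It was 0.628 with CD4 not required (10.8% and 11.4%, exact p = 0.669) and 3.43 with at least 1 gene (44.8% and 48.2%). The main healthy share was 11.8%, and the part of the base share in these sizes was not tested. The p was under 0.05 by the permutation test of means (2.57, exact p = 0.0390) and without OS2. The difference in share of all barcodes reversed with FOXP3 required (-0.0163), with at least 1 gene (-0.398), with thinning (-0.0557) and without OS4 (-0.0118). The difference in cells with FOXP3 was 0.140 with thinning. There H3 was the only healthy dog with at least 25 regulatory T cells left, so no reversal can be read from that value. Leaving out each dog gave 1.96 to 2.96 for the gate share, -0.0118 to 0.267 for the share of all barcodes, -1.36 to -0.247 for cells with FOXP3, -0.105 to 2.10 for IKZF2 (reversed without OS3), -3.91 to -2.07 for CTLA4 and 1.77 to 4.5 for IL2RA. For the left-out gene it gave 4.07 to 4.47 for FOXP3, 44.9 to 48.1 for IKZF2, 34.6 to 37.7 for CTLA4 and 14.4 to 15.9 for IL2RA, and for genes called 495 to 554 higher, 434 to 507 lower and 0 between OS and healthy.

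With a replicate block over the 7 shared numbers, the gate share differed by 2.20 (exact p = 0.203), the share of all barcodes by 0.117 (exact p = 0.812) and 0 genes were called between OS and healthy. In the comparison with matched cells, leaving out dog as a block gave 470 genes higher and 342 lower. Of 7 same-numbered pairs 1 correlated above 0.1 and 0 correlated best with their own number. OS3 gave 26 regulatory T cells. FOXP3, found in 6.06% of all 1880 regulatory T cells, was read from few UMIs per dog.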
